A study of Mus musculus with 2 samples.

Results

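The cells described here are the Aqp2-expressing principal cells of the collecting duct in newborn mouse kidney. They were selected by their own counts of unique molecular identifiers (UMIs, 1 per captured transcript). A barcode first had to hold at least 3000 UMIs and at least 500 detected genes, with at most 20% of its UMIs from mitochondrial genes. It then had to hold at least 3 Aqp2 UMIs and at least 1 Hsd11b2 UMI, no UMI of Trpv5, Foxi1 or Pecam1, at most 1 of Ret and of Slc12a1, and at most 2 of Col3a1. This rule kept 68 cells in replicate 1 and 73 in replicate 2, or 141 of the 9735 barcodes that passed the first step. The share was 1.23% of barcodes in replicate 1 (exact 95% binomial interval 0.956 to 1.56) and 1.74% in replicate 2 (1.36 to 2.18), a mean of 1.48% ± 0.358 (SD, n = 2). The intervals cover counting error only.

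Single-cell RNA sequencing of 3' cDNA ends was carried out on 2 libraries of mouse kidney taken at postnatal day 0. Both carry the label Rbpj c/+ ; Foxd1cre/+, 1 copy of a conditional allele of Rbpj together with Cre under Foxd1, a gene of stromal progenitors. Both libraries therefore form 1 group with n = 2, and no other genotype was analysed here. The labels do not say whether a library came from 1 kidney, 1 animal or a pool. The p-values therefore measure only how differences between cell classes vary over these 2 libraries, which may be technical. Collecting duct cells descend from the ureteric bud, while Foxd1 marks the stroma. Replicate 1 held 200331687 UMIs and replicate 2 held 173166168. The median principal cell had 18421 UMIs in replicate 1 and 25762 in replicate 2, with a range of 3984 to 201369 and 3756 to 129165. Only 6 barcodes that passed the first step occurred in both libraries.

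Principal cells line the collecting duct, the last segment through which urine passes. They take up water through aquaporins: Aqp2 is moved to the luminal membrane when vasopressin binds its receptor Avpr2, and Aqp3 and Aqp4 let the water out on the blood side. They take up sodium through the epithelial channel built of Scnn1a, Scnn1b and Scnn1g. Hsd11b2 inactivates glucocorticoids, so that the mineralocorticoid receptor Nr3c2 in these cells answers to aldosterone. Acid-secreting and base-secreting intercalated cells lie between them and derive from shared precursors. In the newborn kidney the ureteric tips, which express Ret and Wnt11, still branch at the periphery, while the stalks behind them lengthen and mature.

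Levels are given as counts per 1000000 UMIs (CPM) of the summed cells of a library, first for replicate 1 and then for replicate 2. Foxd1 itself stood at 1.91 and 1.69 CPM in the principal cells and 22.5 and 25.6 CPM in all other barcodes. The markers of the label were present. Aqp2 stood at 2244 and 1843 CPM in the selected cells, at 93.2 and 77.9 CPM in all other barcodes and at 17.2 and 14.1 CPM in podocyte-gated cells, which should lack it. Per cell, Aqp2 ran from 3 to 408 UMIs in replicate 1 (median 33.5) and from 3 to 227 in replicate 2 (median 44). Both markers served in the selection, so their high levels are no finding. Markers that the rule did not use were present as well. Aqp3 was detected in 98.5% and 95.9% of principal cells and in 4.52% and 8.84% of podocyte-gated cells, and Fxyd4 in 94.1% and 94.5% of principal cells and in 6.78% and 11.6% of podocyte-gated cells. Gata3, a transcription factor of the ureteric lineage, was detected in 98.5% and 94.5% of principal cells and in 3.11% and 3.87% of podocyte-gated cells. The median depth was lower in the podocyte-gated cells, at 9268 and 14145 UMIs.

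Free RNA in the droplets would give fewer Aqp2 UMIs than were counted in nearly every cell. The expected number was taken from barcodes of 10 to 100 UMIs, with every UMI of a cell counted as free RNA. It is thus an upper limit. At median depth it was 0.426 Aqp2 UMIs in replicate 1 and 1.81 in replicate 2. Measured Aqp2 was above the limit for the cell's own depth in all 68 cells of replicate 1. In replicate 2 this held for all but 1 of the 73 cells. That cell was the deepest of replicate 2, with 129165 UMIs and 3 Aqp2 UMIs. High doublet scores, those of the top 4.43% and 3.38% of barcodes in each library, were held by 5 and 4 principal cells, or 7.35% and 5.48%.

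**Figure D1:**
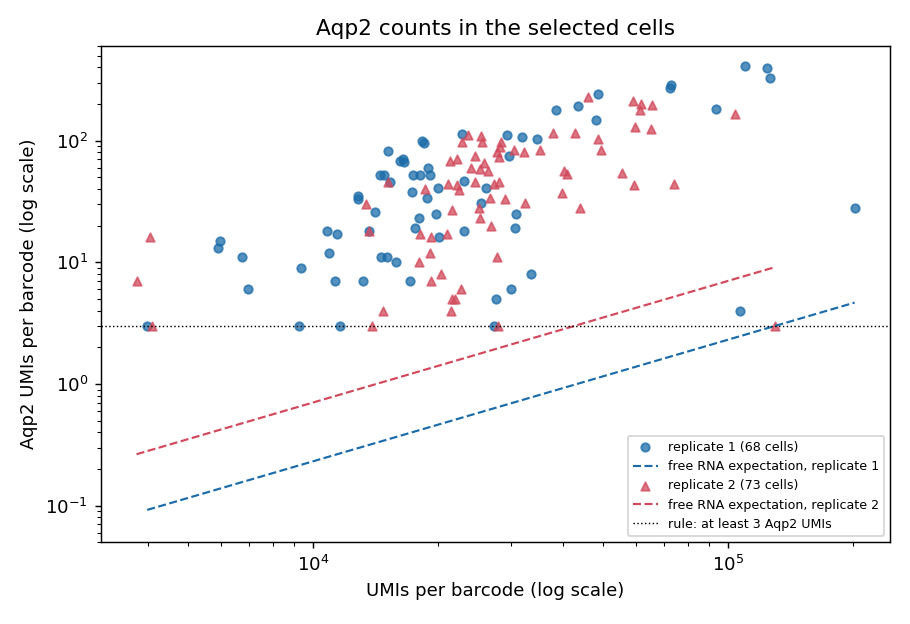
Aqp2 UMIs (vertical, log scale) against all UMIs (horizontal, log scale) for each of the 68 and 73 selected cells. Dashed lines give the Aqp2 UMIs expected in each library if all UMIs of a cell were free RNA. The dotted line gives the threshold of 3 UMIs. Nearly all cells lie well above the dashed line of their library, and the cells near the threshold occur at all depths.

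Cells just outside the Aqp2 threshold looked different from the bulk of those inside it. Passing every other condition but with 1 or 2 Aqp2 UMIs were 45 and 57 barcodes, in which Fxyd4 stood at 26.8 and 12.4 CPM and Scnn1b at 12.2 and 18.8 CPM. The 6 and 8 cells with 3 to 5 Aqp2 UMIs had 69.7 and 157 CPM of Fxyd4 but 5926 and 5327 CPM of S100g, the calcium-binding protein of the connecting tubule. The 62 and 65 cells with 6 or more had 1382 and 1560 CPM of Fxyd4 and 1099 and 1631 CPM of S100g. In Fxyd4, Scnn1b and Gata3 the cells with 3 to 5 Aqp2 UMIs lay between the other 2 bands in both libraries. Gata3 stood at 118 and 102 CPM in them, against 599 and 396 CPM at 6 or more. The threshold therefore kept some cells with few of the principal genes. Those cells were rich in connecting tubule transcripts, and held the distal convoluted tubule marker Slc12a3 at 311 and 0 CPM. Of the other conditions, Foxi1 removed the most: 44 and 40 barcodes failed it alone, with median depths of 54096 and 56748 UMIs. Those barcodes held Aqp2 at 1886 and 1438 CPM together with the proton pump subunit Atp6v1g3 at 565 and 733 CPM, and 5 in each library had a high doublet score. Trpv5, the luminal calcium channel of the connecting tubule, removed 18 and 34 barcodes that passed all else.

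Because Aqp2 defines these cells, the stretch before its start is shown beside those of Aqp3 and Fxyd4, a water channel and a pump regulator that the selection did not use and that nearly all of these cells express. The 250 bases upstream of each RefSeq gene start (GRCm38.p6, 5′ to 3′ on the gene's strand) are Aqp2 at chr15:99578806-99579055, plus strand, Aqp3 at chr4:41098184-41098433, minus strand and Fxyd4 at chr6:117937336-117937585, minus strand. Capitals mark a GATA motif (AGATAA or its reverse TTATCT) and an ETS motif (AGGAAG or its reverse CTTCCT), searched on both strands. These families were chosen because Gata2, Gata3 and the ETS factors Elf5 and Ehf are expressed in the cells.
Aqp2: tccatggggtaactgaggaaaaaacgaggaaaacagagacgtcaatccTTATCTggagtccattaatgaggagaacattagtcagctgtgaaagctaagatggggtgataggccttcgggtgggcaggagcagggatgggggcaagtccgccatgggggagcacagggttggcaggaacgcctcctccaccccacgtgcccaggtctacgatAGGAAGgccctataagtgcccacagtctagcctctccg
Aqp3: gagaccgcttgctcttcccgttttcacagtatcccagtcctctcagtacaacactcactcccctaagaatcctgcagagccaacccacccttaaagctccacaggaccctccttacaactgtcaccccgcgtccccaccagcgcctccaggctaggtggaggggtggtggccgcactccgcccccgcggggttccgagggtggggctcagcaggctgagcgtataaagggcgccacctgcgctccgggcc
Fxyd4: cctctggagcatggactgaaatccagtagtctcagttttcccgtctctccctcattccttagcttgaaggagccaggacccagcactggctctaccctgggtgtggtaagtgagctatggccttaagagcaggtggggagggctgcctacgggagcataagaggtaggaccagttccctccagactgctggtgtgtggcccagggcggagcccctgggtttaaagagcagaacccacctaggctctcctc
The Aqp2 stretch held 1 GATA motif, starting 202 bases before the gene start, and 1 ETS motif, starting 38 bases before it. The stretches of Aqp3 and Fxyd4 held neither, and none of them held the grainyhead motif AACCNGGTT. Over all 32851 RefSeq promoters of that length, 9.99% held the GATA motif, 29.5% the ETS motif and 0.240% the grainyhead motif. A match is a string of letters and no binding was measured.

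The genes with the greatest excess over all other barcodes included Slc14a2, Aqp4, Aqp2 and Avpr2 of the water and urea list, beside many genes of no list. They are described without a test, since the same counts chose the cells. Among genes of at least 20 CPM in both libraries, the 25 with the greatest fold began with Crisp1 (78.8 and 82.2 CPM against 2.28 and 1.45 CPM elsewhere), which encodes a cysteine-rich secretory protein. Slc14a2, which encodes the urea transporter UT-A, followed with 399 and 146 CPM against 11.8 and 5.87 CPM. Aqp4 had 280.5 and 286 CPM against 12.3 and 9.20 CPM, and Fxyd4, a regulator of the sodium pump, 1265 and 1409 CPM against 56.4 and 64.7 CPM.

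Elf5, an epithelial ETS factor, had 166 and 177 CPM against 8.24 and 7.13 CPM, Wnt9b, a ligand that acts on the neighbouring mesenchyme, 190.2 and 110.1 CPM against 10.4 and 5.90 CPM, and Avpr2 66.4 and 54.4 CPM against 3.39 and 3.97 CPM. The 25 also held Aqp2, the N-glycan branching enzyme gene Mgat4c, the EGF-family ligand gene Btc, the prostaglandin receptor gene Ptger1, the ion channel genes Mcoln3 and Kcnh7, the magnesium transporter gene Nipal1, the calcium-binding protein gene S100a14 and the receptor gene Npsr1. Hsd3b6, Sprr2f, Rasgrf2, Frmpd4, Tex29, Atp10b, Spink8 and Rnf186 made up the rest with 1 unnamed transcript. In each library the fold of these genes over the other barcodes was between 10.4 and 56.6. Of the 19 of these 25 genes found in the RefSeq promoter table, 3 held the GATA motif (Aqp2, Hsd3b6 and Mgat4c) and 7 the ETS motif, against 11.4% and 32.3% of 27025 genes.

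Slc14a2 was very uneven among the cells. It had no UMI in 41 of 68 cells in replicate 1 and in 49 of 73 in replicate 2, and 1 cell gave 289 of its 835 counts in replicate 1 and 1 cell 172 of its 347 counts in replicate 2. The difference between its level in the 2 libraries therefore rests on few cells.

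The principal cells were next compared with 3 other classes gated from the same libraries. Ureteric tip-like cells (31 and 21) held at least 3 Ret UMIs, 1 Wnt11 UMI and at most 2 Aqp2 UMIs, connecting tubule-like cells (18 and 40) at least 1 Trpv5 UMI and 3 Calb1 UMIs, and intercalated-like cells (74 and 59) at least 1 Foxi1 and 1 Atp6v1g3 UMI. The counts of each class were added up within a library, and edgeR's quasi-likelihood test was fitted to the 8 sums with the library as a block, with 3 residual degrees of freedom. A gene is called higher or lower below at a Benjamini-Hochberg adjusted p under 0.05 over 12428 tested genes. The 13 genes used by any gate stayed out of the test. Principal and tip-like cells were thus parted on both Aqp2 and Ret, and genes that go with a gate gene in the same cells, such as other water transport genes, are not independent of the choice of cells. All 3 comparisons share the same principal sums. Log2 fold changes are principal over the other class, each given ± a standard error. That error was derived from the test, as the size of the change divided by the square root of the F statistic.

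**Figure D2:**
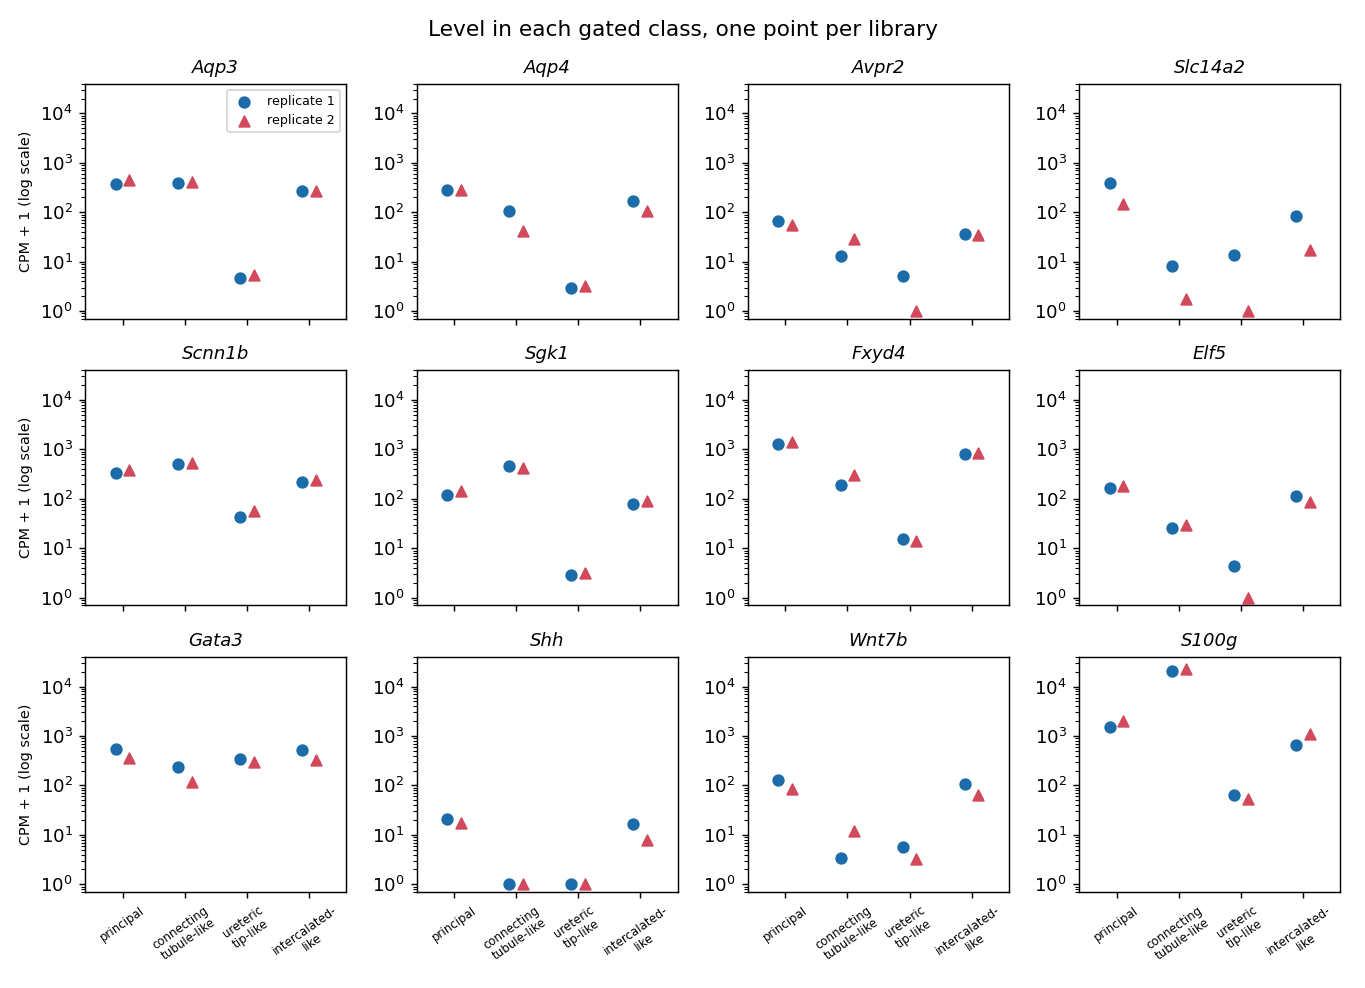
Level of 12 genes (CPM + 1, log scale) in the principal cells and in the connecting tubule-like, ureteric tip-like and intercalated-like cells, 1 point per library. The water, urea and Elf5 panels are higher in the principal cells than in the tip-like cells, Scnn1b and Sgk1 are highest in the connecting tubule-like cells, and Shh is at 0 in both libraries of the connecting tubule-like and the tip-like cells.

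Against the ureteric tip, principal cells had more of the transport genes of the mature duct and less of the genes of branching and growth. Aqp3 stood at 376 and 442 CPM in principal cells and at 3.75 and 4.44 CPM in tip-like cells, a log2 fold change of 6.63 ± 0.22 (adjusted p = 3.7e-08, edgeR). Aqp4 differed by 7.23 ± 0.40 (adjusted p = 3.9e-07, edgeR) and Fxyd4 by 6.55 ± 0.23 (adjusted p = 3.7e-08, edgeR). The opposite held for tip regulators: Etv4 and Etv5, ETS factors downstream of Ret, stood at 8.12 and 9.28 CPM and 6.21 and 5.90 CPM in principal cells and at 324 and 269 CPM and 289.6 and 254 CPM at the tip. Over all genes 1790 were higher in principal cells, 14.4% of those tested, and 1833 were lower, 14.7%, with a median log2 fold change of -0.0088.

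Of the water and urea transport list, 8 were higher, 1 lower and 7 not called of 16 tested, with a median of 1.08. Avpr2, the vasopressin receptor, had 66.4 and 54.4 CPM in principal cells against 4.22 and 0 CPM, a log2 fold change of 4.35 ± 0.47 (adjusted p = 4.5e-05, edgeR). Nfat5, the factor that answers to high salt, had 873 and 611 against 316 and 302 CPM (1.25 ± 0.17). Slc14a2 had 399 and 146 against 12.7 and 0 CPM (5.36 ± 0.34). Aqp5 had 9.08 and 10.96 CPM in principal cells and no count at the tip, at least 10.2-fold higher against a floor of 3 counts over both tip sums (edgeR adjusted p = 0.0022). The 1 gene of the list that was lower was Adcy3, an adenylyl cyclase, at 6.21 and 3.80 CPM against 16.4 and 13.3 CPM (-1.54 ± 0.45). Both principal sums lay above both tip sums for Aqp3, Aqp4, Fxyd4, Avpr2, Nfat5 and Slc14a2.

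Sodium transport genes moved in 1 direction. Of the list, 13 were higher, 0 lower and 4 not called of 17 tested, with a median of 2.50. The 3 channel subunits Scnn1a, Scnn1b and Scnn1g stood at 110.4 and 86.5, 329 and 384, and 271 and 248 CPM in principal cells and at 2.35 and 2.22, 41.3 and 55.5, and 16.9 and 28.9 CPM at the tip. Their log2 fold changes were 5.35 ± 0.40, 2.91 ± 0.15 and 3.64 ± 0.24. Sgk1, the aldosterone-induced kinase that keeps the channel at the membrane, differed by 5.97 ± 0.28 (adjusted p = 1.5e-07, edgeR). The mineralocorticoid receptor gene Nr3c2 differed by 2.61 ± 0.19, and the pump subunit gene Atp1b1 by 3.68 ± 0.16. Of the potassium list, 6 were higher, 0 lower and 4 not called of 10 tested; Kcnj16 and Kcnj10, inward rectifiers of the basolateral side, differed by 3.47 ± 0.32 and 2.20 ± 0.25. Kcnj1, the secretory potassium channel of adult principal cells, was low in both classes at 11.5 and 2.11 CPM and 1.41 and 1.11 CPM and was not called (edgeR adjusted p = 0.099).

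Transcription factors split. Of the ureteric list, 10 were higher, 3 lower and 11 not called of 24 tested, with a median of 0.48. Elf5 stood at 166 and 177 CPM against 3.29 and 0 CPM (6.22 ± 0.37, adjusted p = 6.4e-07, edgeR), Gata2 at 103 and 106 against 8.92 and 14.4 CPM (3.30 ± 0.28), and Tfcp2l1, needed for the mix of principal and intercalated cells, at 699 and 578 against 154 and 176 CPM (1.97 ± 0.15). Gata3 differed by only 0.51 ± 0.15 (adjusted p = 0.029, edgeR). Sox9, a progenitor factor, was lower in principal cells, at 11.5 and 24.04 CPM against 441 and 373 CPM (-4.50 ± 0.25, adjusted p = 5e-07, edgeR), as was Hoxb7 (-1.22 ± 0.14).

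Of the tip and branching list, 1 was higher, 11 lower and 1 not called of 13 tested, with a median of -3.95. Etv4 and Etv5 changed by -5.07 ± 0.24 and -5.47 ± 0.29. Gfra1, the co-receptor of Ret, was lower but not lost, at 173 and 170.0 CPM against 907 and 882 CPM (-2.38 ± 0.19). The member that was higher was Fgfr2, a growth factor receptor of the whole ureteric tree, at 786 and 547 CPM against 283 and 314 CPM (1.14 ± 0.19).

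The Wnt and hedgehog list was called in both directions, and Wnt11, a ligand required by the tip gate, is not in it. Of the Wnt and hedgehog list, 4 were higher, 6 lower and 2 not called of 12 tested, with a median of -0.93. Those higher were the 4 ligands Shh, Wnt4, Wnt7b and Wnt9b. Shh, the hedgehog ligand, had 19.6 and 16.03 CPM in principal cells and no count at the tip, at least 17.9-fold higher against the floor of 3 counts (edgeR adjusted p = 0.00041). Wnt7b, which acts on the medullary interstitium, had 126 and 85.6 against 4.69 and 2.22 CPM (4.84 ± 0.36, adjusted p = 2.9e-06, edgeR). Those lower were the BMP ligand gene Bmp7 (-1.30 ± 0.21), the retinoic acid hydroxylase gene Cyp26b1 (-2.47 ± 0.75), the Wnt pathway genes Axin2 (-1.67 ± 0.34), Lgr5 (-2.88 ± 0.39) and Lef1 (-2.64 ± 0.70) and the hedgehog receptor Ptch1 (-0.56 ± 0.18).

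Of the prostaglandin and endothelin list, 6 were higher, 1 lower and 1 not called of 8 tested, with a median of 4.29. Ednrb, an endothelin receptor, stood at 138 and 163 CPM against 3.29 and 2.22 CPM (5.59 ± 0.25, adjusted p = 1.2e-07, edgeR). Ptgs1, the constitutive cyclooxygenase, differed by 3.91 ± 0.30, Ptges, a prostaglandin E synthase, by 4.67 ± 0.38 and Ptger1 by 3.69 ± 0.24. Hpgd, which degrades prostaglandins, had 56.4 and 51.5 CPM and only 2 counts at the tip. The lower one was the adenosine receptor gene Adora1.

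The 6 named genes of highest fold against the tip had at most 1 count at the tip. Hsd3b6, a steroid dehydrogenase gene, was at 0 there and at least 50.7-fold higher in principal cells (edgeR adjusted p = 0.00011), and Tex29 likewise at least 24.9-fold higher (edgeR adjusted p = 8.6e-05). With 1 count each, Foxq1, a forkhead factor gene, had a ratio of 515 (95% counting interval 92.1 to 20352, edgeR adjusted p = 1.3e-06) and Sprr2f one of 371 (95% counting interval 66.3 to 14668, edgeR adjusted p = 1.1e-06). Abi3bp, a matrix protein gene, had a ratio of 291 (95% counting interval 51.9 to 11503, edgeR adjusted p = 3e-06) and Crisp1 one of 244 (95% counting interval 43.6 to 9680.0, edgeR adjusted p = 4.7e-05). At the other end, Cytl1, the Wnt inhibitor gene Wif1 and Gsg1l had no count in principal cells and were at least 105-fold lower, at least 41.7-fold lower and at least 45.2-fold lower against the floor of 3 counts. Adamts18, a matrix protease gene, and Kcnn4, a calcium-activated potassium channel gene, had 128 and 124 CPM and 94.8 and 76.6 CPM at the tip and 1 count each in principal cells.

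The cell cycle list was lower in principal cells than at the tip in 89 of 94 genes, with 0 higher and a median of -1.83. Its summed level was 2490 and 3872 CPM in principal cells and 9022 and 9566 CPM at the tip. Mki67, a proliferation antigen, stood at 29.1 and 61.6 CPM against 280.2 and 128 CPM (-2.23 ± 0.43, adjusted p = 0.0024, edgeR). After thinning each cell to 3000 UMIs, 89.7% of principal cells in replicate 1 (exact 95% interval 79.9 to 95.8) and 91.8% in replicate 2 (83.0 to 96.9) held at least 3 UMIs of the list, against 100% and 100% at the tip (88.8 to 100 and 83.9 to 100). Podocyte-gated cells, taken as a background, held them in 82.8% and 82.3%, so this share lies near its ceiling and says little on cycling. Without thinning it was 100% and 98.6% of principal cells.

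The tip comparison is limited by 31 and 21 tip-like cells and by 2 libraries. Without the principal sum of replicate 1 the count of genes called fell from 3623 to 1747, and without that of replicate 2 to 1993; among the genes named for this comparison, the calls of Hes1, Lef1 and Mki67 were lost without replicate 1, those of Axin2 without replicate 2, and those of Adcy3, Cyp26b1, Gata3 and Ptch1 in either case.

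Against the connecting tubule, the segment just upstream, principal cells were higher in 5 of 16 water and urea genes and in the ligand genes Shh, Wnt7b and Wnt9b, and lower in 6 of 10 potassium and 8 of 10 calcium genes, while sodium genes were called in both directions. Slc14a2 stood at 399 and 146 CPM against 7.33 and 0.744 CPM, a log2 fold change of 6.29 ± 0.48 (adjusted p = 1.6e-05, edgeR). S100g stood at 1529.8 and 2028 CPM against 20724 and 22941 CPM, -3.79 ± 0.19 (adjusted p = 1.3e-06, edgeR). Among the principal cells S100g was concentrated in cluster 4, described below, at 12204 and 12345 CPM, against 40.8 and 167 CPM in the others. Its level over all principal cells thus averages unlike cells. Over all genes 841 were higher in principal cells, 6.77% of those tested, and 979 were lower, 7.88%, with a median log2 fold change of -0.0026.

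Of the water and urea list, 5 were higher, 0 lower and 11 not called of 16 tested, with a median of 0.82. Aqp4 had 280.5 and 286 against 105 and 40.9 CPM (2.02 ± 0.25, adjusted p = 0.00028, edgeR) and Fxyd4 1265 and 1409 against 193 and 308 CPM (2.22 ± 0.17, adjusted p = 1.8e-05, edgeR). Nfat5 differed by 1.90 ± 0.18 and Pde4d, which breaks down the vasopressin second messenger, by 1.65 ± 0.23. Aqp3 did not pass the test, at 376 and 442 CPM against 381 and 412 CPM (-0.12 ± 0.13, adjusted p = 0.6, edgeR), and the ranges of the 2 classes overlapped. Avpr2, at 66.4 and 54.4 CPM against 12.2 and 28.3 CPM, missed the threshold (1.14 ± 0.36, adjusted p = 0.055, edgeR), though both principal sums were above both connecting tubule-like sums. Aqp2 itself, a gate gene, was also present in the connecting tubule-like cells at 408 and 479 CPM.

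The sodium list went both ways, with 4 higher, 8 lower and 5 not called of 17 tested and a median of -0.71. The channel subunits Scnn1b and Scnn1g were lower in principal cells, at 329 and 384 against 513 and 530.2 CPM (-0.71 ± 0.13, adjusted p = 0.0034, edgeR) and 271 and 248 against 621 and 425 CPM (-1.14 ± 0.18, adjusted p = 0.0013, edgeR). Scnn1a was not called (-0.69 ± 0.22, adjusted p = 0.06, edgeR). Sgk1 was lower, at 119.9 and 142 CPM against 455 and 413 CPM (-1.88 ± 0.14, adjusted p = 1.6e-05, edgeR), as were the pump gene Atp1b1 (-1.77 ± 0.13), the receptor gene Nr3c2 (-0.72 ± 0.16) and Usp2 and Klf9. Higher were Nedd4l, the ubiquitin ligase that removes the channel (1.28 ± 0.16), the channel-activating protease gene Prss8 (0.69 ± 0.19), the glucocorticoid receptor gene Nr3c1 (0.82 ± 0.20) and Tsc22d3, a glucocorticoid-induced gene (1.61 ± 0.39).

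Potassium genes were lower where they were called: 0 higher, 6 lower and 4 not called of 10 tested, with a median of -1.34. Kcnj1 had 11.5 and 2.11 CPM against 46.4 and 46.8 CPM (-3.28 ± 0.62, adjusted p = 0.0041, edgeR). Kcnj10 changed by -1.73 ± 0.18, and the kinase genes Wnk1 and Wnk4, regulators of distal salt transport, by -1.75 ± 0.19 and -1.88 ± 0.24. Of the calcium list, 0 were higher, 8 lower and 2 not called of 10 tested, with a median of -3.19. Slc8a1, the sodium-calcium exchanger, had 2270.4 and 1358 CPM against 7884 and 6274 CPM (-2.15 ± 0.19) and Vdr, the vitamin D receptor, 18.2 and 23.2 against 156 and 148 CPM (-3.03 ± 0.20). The connecting tubule-like gate required Trpv5 and Calb1, and the principal gate excluded Trpv5, so the calcium list is not independent of the choice of cells.

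Of the ureteric transcription factors, 6 were higher, 6 lower and 12 not called of 24 tested, with a median of 0.13. Higher were Elf5 (166 and 177 against 24.4 and 29.00 CPM, 2.42 ± 0.27, adjusted p = 0.00014, edgeR), Gata3 (556 and 365 against 232 and 118 CPM, 1.30 ± 0.17), Pax2 (1.26 ± 0.18), Klf5 (2.58 ± 0.35), Ehf (1.08 ± 0.26) and Grhl2, a grainyhead factor of epithelia (0.85 ± 0.21). Lower were Emx1, a homeobox gene (21.5 and 35.8 against 225 and 207 CPM, -3.05 ± 0.24, adjusted p = 1.9e-05, edgeR), Tfap2b (-1.10 ± 0.27), Esrrg (-0.77 ± 0.16), Hoxd8, Lhx1 and Nr2f1. Gata2 was not called (0.25 ± 0.22, adjusted p = 0.52, edgeR).

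Of the Wnt and hedgehog list, 4 were higher, 1 lower and 7 not called of 12 tested, with a median of 0.16. Wnt9b had 190.2 and 110.1 CPM against 0 and 2.97 CPM (5.61 ± 0.50, adjusted p = 3.8e-05, edgeR) and Wnt7b 126 and 85.6 against 2.44 and 11.2 CPM (3.22 ± 0.35, adjusted p = 0.00013, edgeR). Shh had no count in the connecting tubule-like cells and was at least 10.3-fold higher against the floor of 3 counts (edgeR adjusted p = 0.004). Of the prostaglandin and endothelin list, 4 were higher, 1 lower and 3 not called of 8 tested, with a median of 1.65. Ptger1 differed by 2.62 ± 0.25, Ptgs1 by 2.09 ± 0.28 and Ednrb by 1.03 ± 0.17, while Ptges was lower (-0.89 ± 0.22). The osmolyte list, of genes by which cells gather compatible solutes, gave 3 higher, 0 lower and 6 not called of 9 tested, with a median of 0.78. Akr1b3, the aldose reductase that makes sorbitol, had 238 and 223 CPM against 70.9 and 50.6 CPM (1.79 ± 0.23).

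Among the 6 named genes of highest fold, AC106834.1 and Tex29 had no count in connecting tubule-like cells and were at least 14.01-fold higher and at least 14.4-fold higher (edgeR adjusted p = 0.00055 and edgeR adjusted p = 0.00079). Tbx3, a T-box factor gene of the stalk and ureter, had 218 and 175 CPM in principal cells and 1 count in the connecting tubule-like cells, a ratio of 343 (95% counting interval 61.3 to 13547, edgeR adjusted p = 9.8e-06). Tbx3os1, an antisense transcript next to it, had a ratio of 280.1 (95% counting interval 50.1 to 11079, edgeR adjusted p = 1.2e-05); reads of the 2 transcripts can be told apart only by strand. Mgat4c and Sprr2f also had 1 count each there. Lowest in principal cells were Klk1, tissue kallikrein, at 4.30 and 0.843 CPM against 257 and 131 CPM (-6.36 ± 0.41, adjusted p = 1.2e-05, edgeR), Spp1, osteopontin (-4.47 ± 0.17), Kl, the FGF23 co-receptor klotho (93.6 and 37.1 against 804 and 815 CPM, -3.88 ± 0.27), Defb1, a defensin (-3.86 ± 0.18), S100g, and Serpinb1a, a protease inhibitor (-3.76 ± 0.36). Like S100g, Defb1 was concentrated in cluster 4, at 1924 and 1131 CPM against 7.62 and 19.9 CPM in the other principal cells.

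The connecting tubule-like sums rest on 18 and 40 cells. Without the principal sum of replicate 1 the count of genes called fell from 1820 to 969, and without that of replicate 2 to 831; among the genes named for this comparison, the calls of Grhl2 were lost without replicate 1, those of Kcnj1, Nr3c1 and Tsc22d3 without replicate 2, and those of Ehf, Esrrg, Nr3c2, Prss8, Ptges, Scnn1b and Tfap2b in either case.

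**Figure D3:**
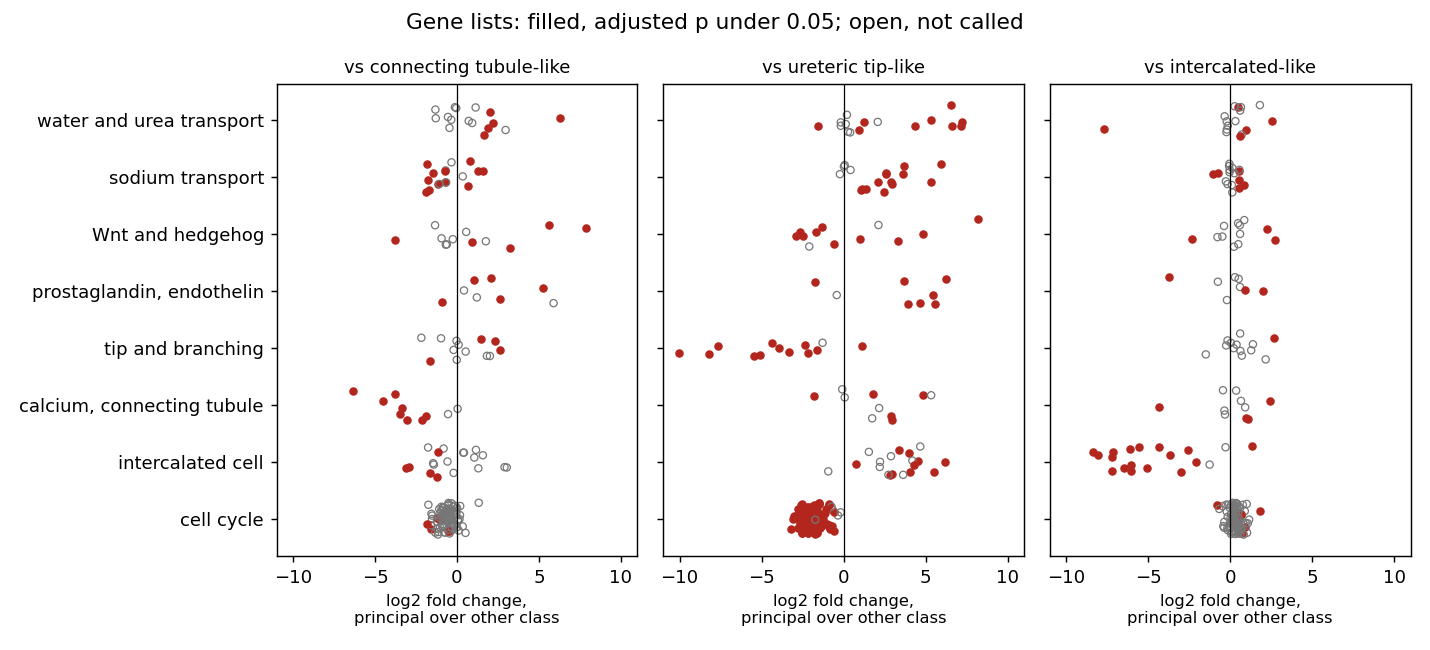
Log2 fold change, principal over the other class (horizontal), of each tested gene of 8 lists against the connecting tubule-like, ureteric tip-like and intercalated-like cells. Filled points are genes with an adjusted p under 0.05. The called sodium transport genes lie right of 0 against the tip and on both sides of 0 against the connecting tubule, the called cell cycle genes lie left of 0 against the tip, and 16 of the called intercalated cell genes lie left of 0 against the intercalated-like cells.

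Against the intercalated-like cells principal cells had far less of the proton pump, anion exchanger and intercalated transcription factor genes, while the medians of the water and sodium lists lay nearer to 0. Over all genes 357 were higher in principal cells, 2.87% of those tested, and 731 were lower, 5.88%, with a median log2 fold change of 0.011. The intercalated-like class was mixed. Of its cells, 34 of 74 and 21 of 59 held at least 3 Aqp2 UMIs, with median depths of 48332 and 68688 UMIs against 20386 and 28716 UMIs in the rest. Each value against the whole class is therefore followed, where it matters, by the value against its 40 and 38 cells with at most 2 Aqp2 UMIs, a division made after the data had been seen. Against those cells 1272 genes were higher (11.4% of 11199 tested) and 1372 lower (12.3%), with a median of 0.025. Their low Aqp2 was the reason for the division, so levels of genes that go with Aqp2 are not independent of it.

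Of the intercalated list, 1 was higher, 16 lower and 2 not called of 19 tested, with a median of -5.54. Slc4a9, an anion exchanger, had 17.7 and 6.75 CPM in principal cells and 484 and 553 CPM in intercalated-like cells (-5.54 ± 0.28, adjusted p = 2.6e-07, edgeR). Atp6v0d2, a proton pump subunit, had 14.3 and 4.22 against 631 and 529 CPM (-6.10 ± 0.38, adjusted p = 1.2e-06, edgeR). Slc4a1, the anion exchanger of acid-secreting cells, had 2.87 and 0 against 61.7 and 117 CPM (-6.06 ± 0.52), and Dmrt2, a transcription factor gene, 2.87 and 0.422 against 158 and 117 CPM (-6.49 ± 0.36). Slc26a4, the pendrin of base-secreting cells, and the homeobox gene Hmx2 had 179 and 141 CPM and 98.9 and 158 CPM in intercalated-like cells and 2 counts each in principal cells. Their ratios of intercalated-like over principal were 359 (95% counting interval 99.2 to 2971, edgeR adjusted p = 2.6e-07) and 283 (95% counting interval 78.2 to 2345, edgeR adjusted p = 5.7e-07). The 1 gene of the list that was higher was Slc2a9, a urate transporter, at 27.2 and 14.8 CPM against 6.30 and 8.72 CPM (1.36 ± 0.32). It is a leading gene of cluster 4 of the principal cells, described below, at 215 and 71.7 CPM. In the principal cells outside that cluster Slc2a9 stood at only 1.09 and 4.48 CPM, below the intercalated-like cells. Against the cells with at most 2 Aqp2 UMIs the list gave 0 higher, 17 lower and 2 not called of 19 tested.

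More water genes were called against the low-Aqp2 cells than against the whole class. Of the list, 4 were higher, 1 lower and 11 not called of 16 tested, with a median of 0.41, and against the low-Aqp2 cells 8 higher, 1 lower and 7 not called of 16 tested, with a median of 1.19. Aqp3 had 376 and 442 against 270.4 and 268 CPM in the whole class (0.50 ± 0.13, adjusted p = 0.03, edgeR) and 152 and 146 CPM in the low-Aqp2 cells (1.28 ± 0.15, adjusted p = 0.00021, edgeR). Fxyd4 differed from the whole class by 0.59 ± 0.15 (adjusted p = 0.035, edgeR) and stood at 38.3 and 18.2 CPM in the low-Aqp2 cells. Slc14a2 had 399 and 146 against 82.6 and 16.4 CPM (2.53 ± 0.24, adjusted p = 4e-05, edgeR). Avpr2 was not called against the whole class (0.71 ± 0.27, adjusted p = 0.14, edgeR). The called vasopressin receptor gene was Avpr1a, of the V1a receptor, which had 58.7 and 54.5 CPM in the intercalated-like cells and 1 count in principal cells, a ratio of 253 (95% counting interval 45.1 to 10031, edgeR adjusted p = 4.5e-06).

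Of the sodium list, 4 were higher, 2 lower and 11 not called of 17 tested, with a median of 0.11. Scnn1b and Scnn1g had 329 and 384 against 213 and 237 CPM (0.56 ± 0.13, adjusted p = 0.017, edgeR) and 271 and 248 against 153 and 123 CPM (0.82 ± 0.18, adjusted p = 0.015, edgeR), and 65.8 and 53.8 CPM and 38.3 and 30.1 CPM in the low-Aqp2 cells. Scnn1a did not separate the cells: it had 110.4 and 86.5 against 90.2 and 99.2 CPM in the whole class (-0.04 ± 0.20, adjusted p = 0.94, edgeR) and 88.6 and 70.2 CPM in the low-Aqp2 cells (0.14 ± 0.25, adjusted p = 0.74, edgeR). The pump gene Atp1b1 was not called in either (edgeR adjusted p = 0.95 and edgeR adjusted p = 0.17). The potassium list gave 1 higher, 1 lower and 8 not called of 10 tested, with Kcnj16 higher (1.11 ± 0.23) and Wnk1 lower (-0.67 ± 0.18).

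Of the ureteric transcription factors, 2 were higher, 1 lower and 21 not called of 24 tested. Tfcp2l1 was the lower one, at 699 and 578 CPM against 1332 and 1267 CPM (-1.13 ± 0.14, adjusted p = 0.00038, edgeR), and Elf5 (0.69 ± 0.19) and Emx1 (1.17 ± 0.28) the higher ones. Emx1 was concentrated in cluster 4, at 156 and 177 CPM, against 2.72 and 10.45 CPM in the other principal cells. Whether Emx1 is higher outside that cluster was not tested. Gata3 and Gata2 were not called against the whole class (edgeR adjusted p = 0.93 and edgeR adjusted p = 0.93), but against the low-Aqp2 cells Gata3 differed by 1.76 ± 0.19 (adjusted p = 0.00011, edgeR) and Gata2 by 1.06 ± 0.23 (adjusted p = 0.0072, edgeR). Of the Wnt and hedgehog list, 2 were higher, 1 lower and 9 not called of 12 tested, the higher ones being Axin2 (2.24 ± 0.45) and Lgr5 (2.74 ± 0.65). Lgr5 stood at 27.3 and 66.2 CPM in cluster 4 and at 2.72 and 8.46 CPM in the other principal cells. Axin2 was also called higher against the low-Aqp2 cells, while Lgr5 was not among the genes called there. Axin2 was uneven as well, at 1.55 and 3.46 CPM in cluster 2, the largest, and 26.9 and 9.96 CPM in the other principal cells. Wnt7b and Wnt9b were not called against the whole class and stood at 13.2 and 3.64 CPM and 5.98 and 5.47 CPM in the low-Aqp2 cells, against 126 and 85.6 CPM and 190.2 and 110.1 CPM in principal cells. Of the prostaglandin and endothelin list, 2 were higher, 1 lower and 5 not called of 8 tested: Ednrb was higher (0.90 ± 0.14, adjusted p = 0.0018, edgeR), and Ptger3, a prostaglandin E receptor, was lower, at 4.30 and 2.53 CPM against 24.2 and 66.2 CPM (-3.75 ± 0.46, adjusted p = 0.00089, edgeR).

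The 6 named genes of highest fold over the intercalated-like cells were Bach2, a transcriptional regulator (31.5 and 75.1 against 7.63 and 5.45 CPM, 2.92 ± 0.44), Xkr4 (2.84 ± 0.50), Slc14a2, Rbfox1, a splicing regulator (2.12 ± 0.26), Ccnd1, cyclin D1 (48.3 and 208 against 16.6 and 35.99 CPM, 2.07 ± 0.45), and Mgat4a (2.004 ± 0.30). With at least 10 Aqp2 UMIs asked of principal cells, Rbfox1 changed sign to -0.01 and was not called (edgeR adjusted p = 0.99). Bach2 and Rbfox1 are also among the leading genes of 1 cluster of the principal cells described below, at 84.1 and 193 CPM and 436 and 157 CPM in it. Lowest were Slc26a4, Hmx2, Avpr1a, Lsamp, a cell adhesion gene (7.17 and 3.80 against 1669 and 543 CPM, -7.64 ± 0.37, adjusted p = 2.1e-07, edgeR), Tmem163, a zinc transporter gene (-7.52 ± 0.32), and the anion transporter gene Slc26a7, which had 3 counts in principal cells against 172 and 73.4 CPM. Without the principal sum of replicate 1 the count of genes called fell from 1088 to 390, and without that of replicate 2 to 388; among the genes named for this comparison, the calls of Axin2, Mgat4a, Slc2a9 and Xkr4 were lost without replicate 1, those of Ccnd1, Ednrb, Lgr5 and Wnk1 without replicate 2, and those of Aqp3, Dll4, Elf5, Emx1, Fxyd4, Jag1, Kcnj16, Scnn1b and Scnn1g in either case.

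Notch signalling sets the balance of principal and intercalated cells, and the conditional Rbpj allele of these animals is recombined only where Foxd1-driven Cre acts. Rbpj, the DNA-binding partner of Notch receptors, stood at 62.6 and 64.1 CPM in principal cells, 56.2 and 46.8 CPM in connecting tubule-like, 83.5 and 77.8 CPM in tip-like and 55.1 and 53.4 CPM in intercalated-like cells, and was called in none of the comparisons (edgeR adjusted p = 0.62, 0.12 and 0.69 in that order). Of the Notch list, 1 was higher, 2 lower and 26 not called of 29 tested against the intercalated-like cells, or about the shares of all genes tested, 2.87% higher and 5.88% lower. The higher one was Maml2, and the lower ones are given next as single genes. The ligand gene Jag1 was lower in principal cells, at 50.2 and 48.9 CPM against 139 and 71.6 CPM (-1.15 ± 0.26, adjusted p = 0.018, edgeR), and the ligand gene Dll4 had 1 count in principal cells against 8.63 and 7.27 CPM, a ratio of intercalated-like over principal of 35.6 (95% counting interval 6.08 to 1437, edgeR adjusted p = 0.012). The receptor gene Notch2, at 96.03 and 66.6 CPM against 56.1 and 41.1 CPM, was not called (0.64 ± 0.19, adjusted p = 0.069, edgeR) and was higher than in the low-Aqp2 cells (1.46 ± 0.27, adjusted p = 0.0031, edgeR). The target gene Hes1 was not called against the whole class, at 245 and 219 CPM against 243 and 205 CPM (-0.05 ± 0.14, adjusted p = 0.9, edgeR). Against the low-Aqp2 cells the list gave 6 higher (Nrarp, Notch2, Heyl, Maml2, Notch3 and Mib1), 2 lower (Dll4 and Jag1) and 20 not called of 28 tested. Of all genes tested there, 11.4% were higher and 12.3% lower. Against the tip the list gave 6 higher, 3 lower and 20 not called of 29 tested, with Hes1 higher (0.69 ± 0.15, adjusted p = 0.0054, edgeR), and against the connecting tubule 2 higher, 2 lower and 25 not called of 29 tested.

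The genes whose level most resembled that of Aqp2 over the 8 class sums were Lrrfip1 (Pearson r of log2(CPM + 1) = 0.994), Gata2 (0.992), Casz1 (0.990), Adgrg1 (0.989), Cdkl1 (0.988) and Ednrb (0.986), of 12452 genes compared. The 8 sums come from only 2 libraries and were gated in part on Aqp2, so these values are a description.

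The 141 cells were not uniform. Grouped by their own expression they fell into 4 clusters, of 42, 57, 15 and 27 cells, each present in both libraries (18 and 24, 29 and 28, 8 and 7, 13 and 14). What follows describes the clusters and tests nothing, because the same genes made them.

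Cluster 2, the largest, had the principal markers at high levels. Aqp2 stood at 3025 and 2981 CPM, Fxyd4 at 1824 and 2316 CPM and Avpr2 at 87.1 and 86.6 CPM. Its leading genes were Hsd3b6 (145 and 68.1 CPM), Ache, acetylcholinesterase, Sprr2f (253 and 195 CPM), Sfrp1, a Wnt inhibitor gene, and Abi3bp. None of its cells had a high doublet score.

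Cluster 3, with 15 cells, carried most of the urea transporter transcripts. Slc14a2 stood at 1453 and 762 CPM, against 138 and 115 CPM in cluster 2 and 20.3 and 8.35 CPM in cluster 1. Nfat5 stood at 1744 and 1245 CPM and its target Akr1b3 at 532 and 726 CPM, each above every other cluster in both libraries. S100a6 and Ranbp3l led with it, and Shh stood at 45.6 and 39.4 CPM and Wnt7b at 218 and 161 CPM. Hsd11b2 was low at 63.5 and 65.7 CPM, as were Scnn1b at 191 and 177 CPM and Aqp3 at 269.9 and 233 CPM, the lowest of the 4 clusters for each of these 3 genes in both libraries. In the adult kidney Slc14a2 and osmolyte genes mark the inner medulla. Urothelium markers summed to 17.9 and 59.1 CPM in cluster 3, with Upk3a at 0 and 32.8 CPM, and to between 2.39 and 11.5 CPM in the other clusters. The median depth of this cluster was 43346 UMIs and 3 of its 15 cells had a high doublet score; the part of depth in these levels was not tested.

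Cluster 4, with 27 cells, was connecting tubule-like by its markers although Trpv5 was absent by rule. S100g stood at 12204 and 12345 CPM, Calb1 at 1331 and 1995 CPM and Slc8a1 at 6479 and 2281 CPM, and the 5 connecting tubule markers summed to 20037 and 16627 CPM against 1606 and 1579.9 CPM in cluster 2. Aqp2 was the lowest of the clusters at 539 and 941 CPM, with Fxyd4 at 308 and 182 CPM and Aqp4 at 54.6 and 2.76 CPM. Tbx3 and Wnt9b had no count in it in either library. In replicate 1 it also held markers of other classes: the intercalated markers summed to 960.1 and 353 CPM, with Atp6v1g3 at 297 and 5.52 CPM and Slc4a9 at 121 and 13.8 CPM, and the distal convoluted tubule markers to 683 and 88.3 CPM, with Slc12a3 at 226 and 5.52 CPM. In cluster 2 these 2 lists summed to 229 and 273 CPM and 88.6 and 76.2 CPM. Emx1 stood at 156 and 177 CPM and Scnn1b at 706 and 651 CPM, the highest of the clusters. In these cells, 19.1% and 19.2% of those selected, the markers thus went against the label of principal cell.

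Cluster 1, with 42 cells, showed the principal genes at a moderate level, with Aqp2 at 1254 and 1029 CPM, Fxyd4 at 1014 and 923 CPM and Elf5 at 139 and 115 CPM, and led with genes of other cells: Robo2, Vcan, Cped1, Meis2 and Wt1. Robo2 stood at 1362 and 376 CPM and Wt1, a factor of podocytes and nephron progenitors, at 112 and 56.1 CPM. The nephron progenitor markers summed to 484 and 120.5 CPM against 3.11 and 1.15 CPM in cluster 2, and the proximal tubule markers to 27.6 and 367 CPM against 37.3 and 43.9 CPM. Immune markers summed to 46.4 and 264 CPM against 34.2 and 51.97 CPM, with C1qa at 0 and 62.02 CPM in cluster 1 and 0 in cluster 2, and erythroid markers to 563 and 89.5 CPM against 85.5 and 56.6 CPM. The erythroid sum of replicate 1 rests mostly on 1 cell with 349 haemoglobin UMIs, and no other principal cell of that library held more than 6. Cluster 1 held 4 of the 9 cells with a high doublet score. The part of doublets and of other cells' RNA in this cluster was not tested. Without the cells of high doublet score the comparisons called 1726, 3294 and 906 genes against the connecting tubule-like, tip-like and intercalated-like cells.

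**Figure D4:**
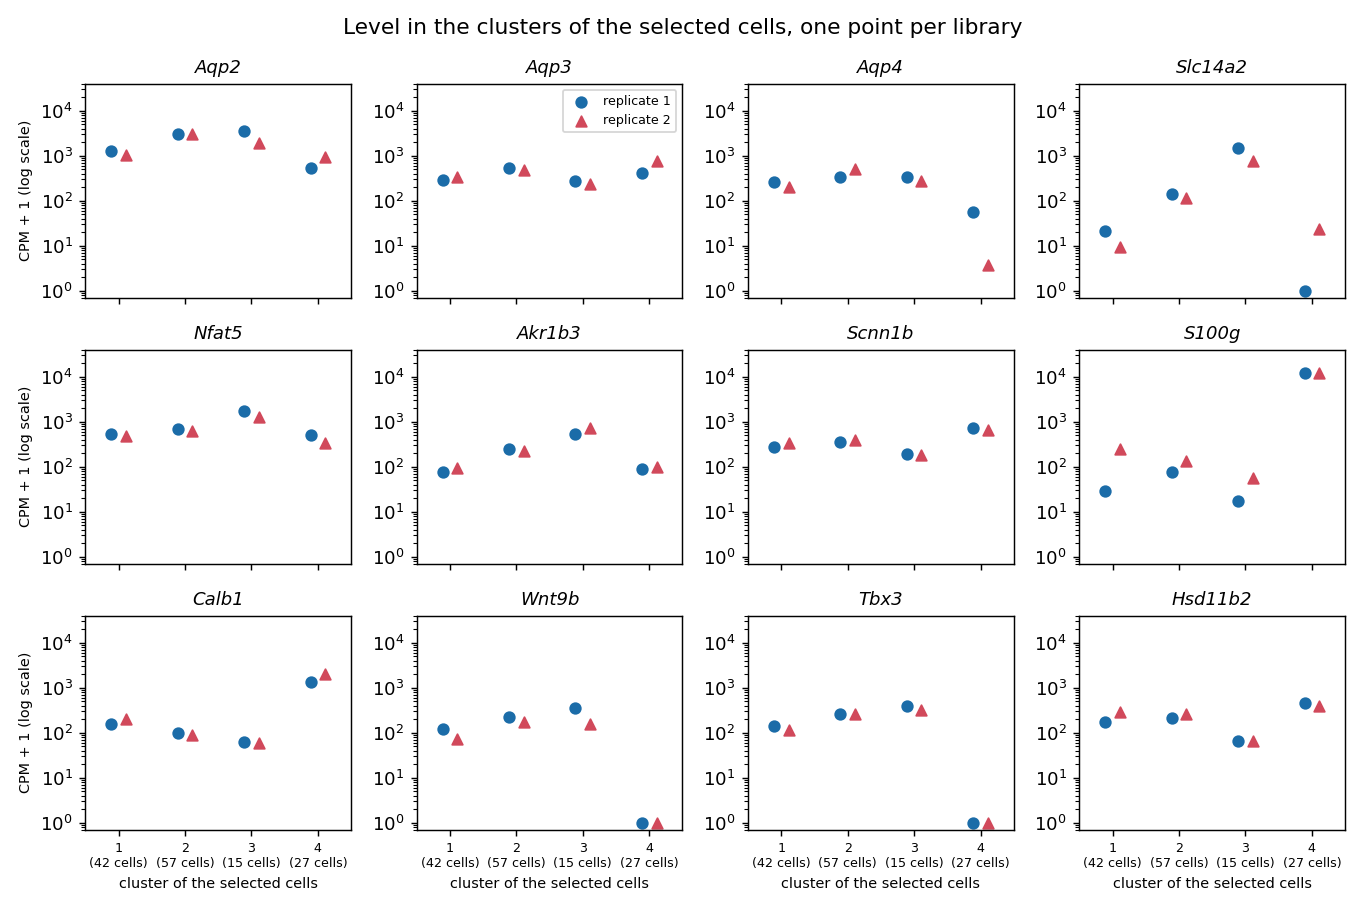
Level of 12 genes (CPM + 1, log scale) in the 4 clusters of the selected cells, 1 point per library, with the number of cells of each cluster under the axis. Slc14a2, Nfat5 and Akr1b3 peak in cluster 3, S100g and Calb1 in cluster 4, where Wnt9b and Tbx3 are at 0 in both libraries.

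Summed over all principal cells, markers of other cell types were present at varied levels, highest for those of the connecting tubule. The connecting tubule markers summed to 4063 and 3803 CPM against 31979 and 35784 CPM in connecting tubule-like cells and 1519 and 2917 CPM in all other barcodes, with Trpv5 at 0 by rule. By cluster these markers summed to 20037 and 16627 CPM in cluster 4 and to between 1291 and 2681 CPM in the others. The intercalated markers summed to 261 and 242 CPM against 3796 and 4887 CPM in intercalated-like cells and 214 and 251 CPM in all other barcodes. The ureteric tip markers summed to 192 and 189.8 CPM against 2319 and 2313 CPM in tip-like cells and 189 and 165 CPM in all other barcodes. The distal convoluted tubule markers summed to 199.7 and 102 CPM against 275 and 402 CPM in all other barcodes. Podocyte markers summed to 12.9 and 31.2 CPM, stroma markers to 12.9 and 11.8 CPM and endothelial markers to 4.30 and 5.90 CPM, with Pdgfra and Pecam1 at 0. Proximal tubule markers summed to 43.96 and 167 CPM, immune markers to 38.7 and 117 CPM (against 131 and 98.4 CPM in all other barcodes) and nephron progenitor markers to 162 and 45.5 CPM. Haemoglobin was uneven: 1 cell of replicate 1 held 349 haemoglobin UMIs, with the next cell at 6, and the erythroid markers summed to 238 and 71.7 CPM. Their part in the comparisons was not tested.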

How the data were processed

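The authors deposited raw UMI counts per gene and barcode for each of 2 libraries, made with Cell Ranger 4 per the file headers; the submitters' processing notes name Cell Ranger 6.0.1 and mm10. Per the labels, cDNA 3' ends were sequenced on the Chromium system. The matrices hold all barcodes, 2761081 and 2545815.

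Cells and the 4 classes were gated on raw counts, as the report states, with no doublet removal. The connecting tubule-like, tip-like and intercalated-like gates also asked for no Pecam1 UMI and limited Col3a1, Slc12a1 and other genes. The sums of each class in each library were tested with edgeR 4.0.16 (R 4.3.3): TMM scaling, filterByExpr, class means and library block, quasi-likelihood F tests, two-sided, Benjamini-Hochberg adjustment. The script was tested on simulated counts. Alternatives were DESeq2 1.42.0, other scaling, filters, depths and gates. The 4 clusters came from scanpy 1.11.5 (2000 variable genes, 20 components, 15 neighbours, Leiden resolution 0.5), and doublet scores from Scrublet.

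The members, the 15 gene lists and the rule for named genes (the 25 genes of highest fold over other barcodes, and 6 per comparison and direction, of at least 20 CPM) were chosen with earlier results of these data known, so list counts are not independent evidence. Promoter sequences are RefSeq's. A few list and gate genes are not reported here.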

Additional observations from a re-analysis of the deposited data

How the results depend on the processing

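Against the connecting tubule-like, tip-like and intercalated-like cells, 1820, 3623 and 1088 genes were called. DESeq2 called 1193, 2238 and 546. With no replicate block they numbered 1003, 2222 and 346, and with cells thinned to 3000 UMIs, which left fewer genes to test, 697, 825 and 669. Leaving out the principal sum of 1 library gave 831 to 969, 1747 to 1993 and 388 to 390, with the lone sum assumed to vary like the other classes. Against the intercalated-like cells, subtraction of free RNA gave 718, and the subset with at most 2 Aqp2 UMIs, added after seeing the data, 2644. The subtraction was scaled by haemoglobin, and 1 cell with 349 haemoglobin UMIs raised the free RNA share of principal cells in replicate 1 to 14.3%. The cause of the other shifts was not tested. The 2 classes of a library come from the same tissue, so the library was kept as a block. The share of barcodes was 2.57% at 1 Aqp2 UMI, against 1.48%, and lay between 1.23% and 1.74% with 1 library left out. The share with cell cycle UMIs, 90.7%, became 99.3% without thinning and 70.0% at 5 UMIs, and lay between 89.7% and 91.8% with 1 library left out. Of 154 named gene results, DESeq2 kept the call or its absence in 134, no block in 124 and another scaling in 153. The direction reversed for Gata2 against the intercalated-like cells with at most 2 Aqp2 UMIs (1.06) and for Rbfox1 at 10 Aqp2 UMIs (-0.015). Depth limits genes with a few counts in a class, whose ratios span more than a factor of 10.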

Other observations

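Over all tested genes, 14.4% were higher and 14.7% lower against the tip, and 6.77% and 7.88% against the connecting tubule. Against the intercalated-like cells the shares were 2.87% and 5.88%. Counts near these shares are no result about a list. Of the junction and keratin list, 12 were higher, 4 lower and 5 not called of 21 tested against the tip (median 1.06), 5 higher, 2 lower and 14 not called of 21 tested against the connecting tubule (median 0.30) and 3 higher, 0 lower and 18 not called of 21 tested against the intercalated-like cells (median 0.07). Krt18, a keratin of simple epithelia, stood at 719.5 and 771 CPM in principal cells, 256 and 257 CPM in tip-like, 362 and 265 CPM in connecting tubule-like and 518 and 446 CPM in intercalated-like cells, and was called higher in each comparison (edgeR adjusted p = 1.5e-05, 0.00037 and 0.031 in that order). Muc1, a luminal mucin, had 91.7 and 91.5 CPM against 15.5 and 12.2 CPM at the tip (2.66 ± 0.21, adjusted p = 4.1e-06, edgeR) and was not called against the intercalated-like cells (0.12 ± 0.15, adjusted p = 0.7, edgeR). The tight junction gene Cldn3 was lower than at the tip (-1.05 ± 0.13, adjusted p = 0.00014, edgeR) and higher than in the connecting tubule-like cells (1.15 ± 0.17, adjusted p = 0.00077, edgeR).

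Cilium and cyst genes, among them those mutated in polycystic kidney disease, gave 4 higher, 0 lower and 11 not called of 15 tested against the tip, 3 higher, 0 lower and 12 not called of 15 tested against the connecting tubule and 2 higher, 0 lower and 13 not called of 15 tested against the intercalated-like cells. Pkhd1, which encodes fibrocystin, stood at 1039 and 772 CPM in principal cells and at 337 and 208 CPM at the tip (1.75 ± 0.15, adjusted p = 8.9e-06, edgeR), and differed from the intercalated-like cells by 0.78 ± 0.14 (adjusted p = 0.006, edgeR). The osmolyte list gave 4 higher, 0 lower and 5 not called of 9 tested against the tip and 0 higher, 1 lower and 8 not called of 9 tested against the intercalated-like cells, where Slc5a3, the myo-inositol transporter, was lower at 40.6 and 20.2 CPM against 83.9 and 54.2 CPM (-1.30 ± 0.25, adjusted p = 0.0073, edgeR). The stress list, a sign of tissue dissociation, gave 3 higher, 3 lower and 4 not called of 10 tested against the tip, 0 higher, 2 lower and 8 not called of 10 tested against the connecting tubule and 0 higher, 1 lower and 9 not called of 10 tested against the intercalated-like cells. The part of dissociation was not tested.

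The remaining lists were the following, to be read beside the same shares of all tested genes. The calcium list gave 4 higher, 1 lower and 5 not called of 10 tested against the tip and 3 higher, 1 lower and 6 not called of 10 tested against the intercalated-like cells. Atp2b4, Slc8a1 and S100g were higher in both comparisons and Vdr only against the tip. S100g stood at 12204 and 12345 CPM in cluster 4 and at 40.8 and 167 CPM in the other principal cells. Slc8a1 stood at 6479 and 2281 CPM in cluster 4 and at 1683 and 1191 CPM in the others. The tip and branching list gave 3 higher, 1 lower and 9 not called of 13 tested against the connecting tubule and 1 higher, 0 lower and 12 not called of 13 tested against the intercalated-like cells. The intercalated list gave 0 higher, 5 lower and 14 not called of 19 tested against the connecting tubule and 10 higher, 0 lower and 9 not called of 19 tested against the tip. Of those 10, Slc2a9 stood at 215 and 71.7 CPM in cluster 4 and at 1.09 and 4.48 CPM in the other principal cells. Atp6v0d2 stood at 101 and 5.52 against 2.18 and 3.98 CPM, Slc4a9 at 121 and 13.8 against 3.27 and 5.48 CPM. Rhcg was present outside cluster 4 too, at 410 and 328 against 150 and 201 CPM. The rest of the 10 were not examined by cluster. The cell cycle list gave 0 higher, 6 lower and 88 not called of 94 tested and 5 higher, 1 lower and 88 not called of 94 tested against the connecting tubule-like and intercalated-like cells.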
